A study of Kluyveromyces marxianus with 6 samples.

Results

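The change in RNA level between mid-exponential (ME) and early-exponential (EE) growth was described for the yeast *Kluyveromyces marxianus*. It covers all 14298 transfrags of the deposited annotation, and 4 of the 6 libraries of the series entered it, 2 from ME and 2 from EE. A transfrag is a stretch of 1 strand of the genome that was covered by reads, and the class of each transfrag was taken from the deposited annotation. The cells were *K. marxianus* var. marxianus ATCC 36907, a strain also called KM7. They were grown with shaking at 30 °C on yeast nitrogen base with added amino acids, without uracil and with 2% dextrose. ME cells were taken at an optical density of about 7 and EE cells at about 3, with no other treatment in either group. Growth phase and cell density thus move together in these samples. Total RNA depleted of rRNA with a kit made for human, mouse and rat rRNA was sequenced with strand information.

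*K. marxianus* is a budding yeast that can both ferment and respire sugar, and it also grows on inulin and lactose. As a yeast culture grows denser, sugar and other nutrients run down. In *Saccharomyces cerevisiae* the genes of ribosomes, glycolysis, respiration and nutrient uptake are known to be among those that follow growth rate and nutrient supply. Antisense RNA, made from the strand opposite a gene, is widespread in yeasts.

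Each value is a level, the reads on a transfrag after division by the size factor of the library, averaged over 2 libraries of a growth phase. It is not divided by length, so levels are set against each other between transfrags only per kb. The change is log2 of the ME level plus 1 over the EE level plus 1. Since the file holds 1 mean per growth phase, no test could be made, and a change has no replicate check. A change of at least 2-fold stands in for a test here, and "rose" and "fell" are used only past it. The standard errors (SE) given with changes cover counting of reads alone, and p-values are not given. In the low levels, whose reads could be assigned to each library, the squared difference between libraries was 1.87 times the counting variance in ME and 2.11 times in EE, so the SEs are too small. About 1.10e+07 reads lay on the transfrags in ME and 4.41e+06 in EE, estimated from the level that 1 read stands for.

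Of all transfrags, 3822 (26.7%) rose and 5281 (36.9%) fell in ME, with a median change of −0.40. Among the 6498 transfrags with a mean of both levels of at least 10, 2732 (42.0%) rose and 1485 (22.9%) fell, and the median change was 0.52. These balances depend on scaling. The median over all transfrags shifts by 0.23 when ME and EE levels are given the same sum, by −0.46 when the median mRNA is set to no change, and by 1.16 when levels are taken per mapped read. The last of these multiplies ME levels by 2.47 relative to EE and rests on mapped read totals listed by the study, which also count reads outside the transfrags. A change between −1.31 and 0 on the log2 scale therefore turns positive per mapped read for all but low levels, and one between 0 and 0.57 turns negative when the median mRNA is set to no change.

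The RNA classes differed in their balance. In the study's classes, mRNAs are transfrags on the sense strand of genes with predicted coding potential. The other classes are those predicted to be non-coding, antisense or intergenic, long from 200 nt on and short below. At a mean level of at least 10, 1822 of 4189 mRNAs (43.5%) rose and 998 (23.8%) fell. Long antisense RNAs (lancRNAs) had more rises, 716 of 1460 (49.0%), and fewer falls, 225 (15.4%). Long intergenic RNAs (lincRNAs) had the opposite balance, with 163 of 741 (22.0%) risen and 221 (29.8%) fallen. Few of the short classes reached this level. Among those that did, 19 of 52 short antisense RNAs (36.5%) rose and 23 (44.2%) fell, and 12 of 56 short intergenic RNAs (21.4%) rose and 18 (32.1%) fell. Over all 2726 short antisense RNAs (sancRNAs) the median change was −1.42, with 337 (12.4%) risen and 1614 (59.2%) fallen. Over all 1290 short intergenic RNAs (sincRNAs) it was −1.05, with 168 (13.0%) risen and 660 (51.2%) fallen. Of all transfrags, 26.7% rose and 36.9% fell. Median levels of sancRNAs and sincRNAs were 1.08 and 1.54 in ME and 4.08 for both in EE, so many of these calls rest on few reads. With a pseudocount of 10 in place of 1 the median changes were −0.38 and −0.31.

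**Figure D1:**
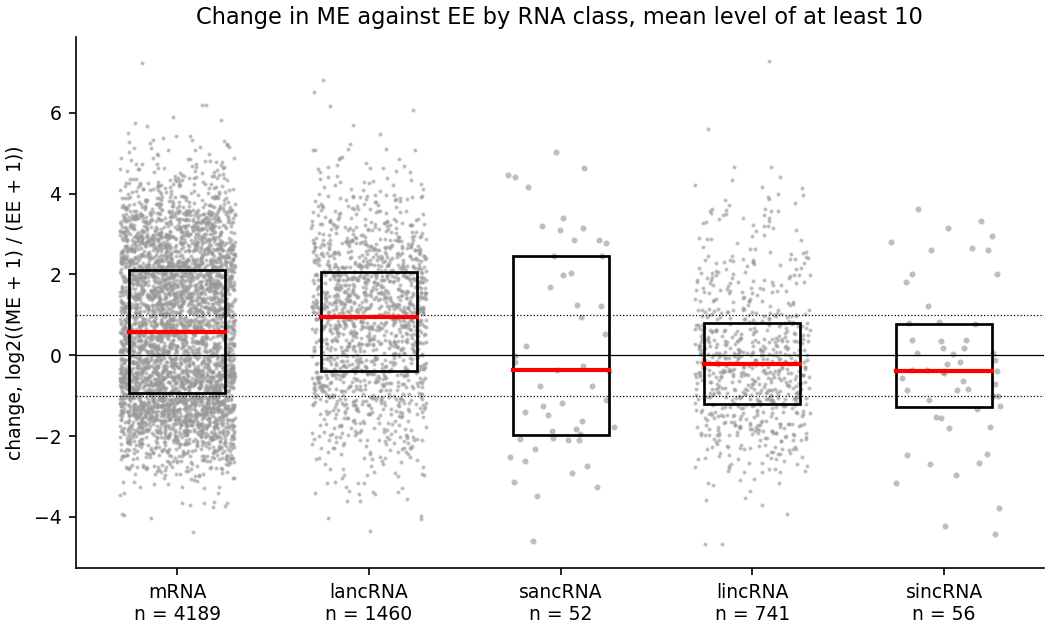
Change in ME against EE, on a log2 scale, of each transfrag with a mean level of at least 10, by RNA class. Boxes span the quartiles, red lines are medians, and dotted lines mark 2-fold. The lancRNA median of 0.94 is the highest of the 5 classes, below 2-fold, and rescaling by the median mRNA ratio moves every value down by up to about 0.57.

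The balance also followed the level. Among mRNAs with a mean level over 50 and up to 100, 389 of 645 (60.3%) rose, and among those over 100 and up to 1000, 812 of 1445 (56.2%) rose, with median changes of 1.50 and 1.27. Above a mean level of 1000 the balance turned, with 146 of 511 mRNAs risen and 192 fallen and a median of −0.40, which is above 0 per mapped read. Below a mean level of 5, 395 of 807 mRNAs fell and 51 rose. LancRNAs over 50 and up to 100 rose in 121 of 204 cases, whereas lincRNAs of the same level fell in 44 of 85 and rose in 16.

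Levels per kb were spread more widely among mRNAs in ME than in EE. The quartiles of the 5785 mRNA transfrags lay at 16.2 and 263 per kb in ME and at 26.2 and 109 per kb in EE, around medians of 66.2 in ME and 47.3 in EE. In the histogram of levels per kb the mRNAs formed a low and a high hump in ME and a single hump in EE. The short antisense RNAs had a median of 9.46 per kb in ME and 37.5 per kb in EE. The median mRNA thus lay 6.99 times above the median sancRNA in ME and 1.26 times above it in EE. Both ratios rest on few reads. Not divided by length, the median sancRNA level was 1.08 in ME and 4.08 in EE, where 3 reads over both libraries give 0.93 and 2.77. SincRNAs had medians of 13.3 per kb in ME and 36.8 per kb in EE. LincRNA medians were closer, at 26.7 per kb in ME and 28.2 per kb in EE. These ratios between classes within a growth phase do not depend on the scaling. The 603 mRNA transfrags that cover at least 80% of a gene did not share the pattern. Their quartiles lay at 141 and 806 per kb in ME and at 67.5 and 703 per kb in EE, and 246 (40.8%) of them rose and 138 (22.9%) fell.

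**Figure D2:**
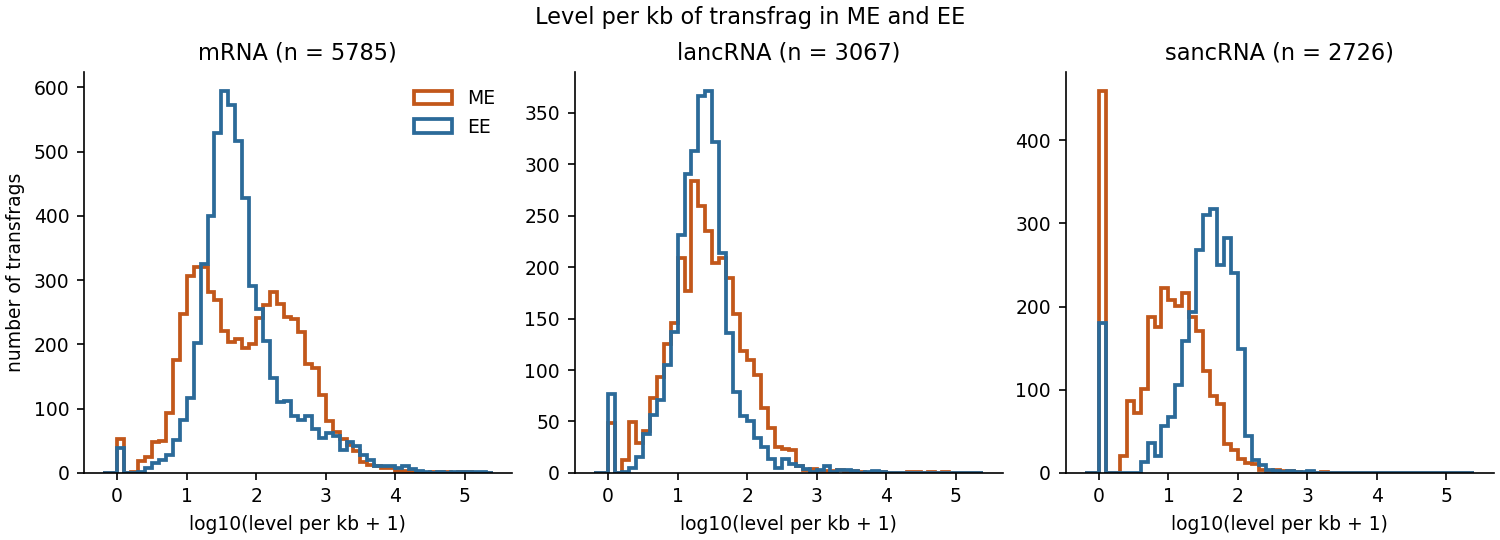
Number of transfrags by level per kb, on a log10 scale with 1 added, in ME (orange) and EE (blue), for mRNAs, lancRNAs and sancRNAs. The leftmost bin holds transfrags listed at 0. The mRNAs show 2 humps in ME and 1 in EE, and the sancRNA median of 9.46 per kb in ME lies left of that of 37.5 per kb in EE.

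The most abundant transfrags of all classes took a smaller share of the summed level in ME. The 10 highest transfrags held 19.4% of it in ME and 29.0% in EE, the 100 highest held 48.2% in ME and 62.1% in EE, and 60 transfrags were among the 100 highest in both. Of the 10 highest, 8 were mRNAs in ME and 10 in EE, and of the 100 highest, 88 in ME and 93 in EE. The mRNA highest per kb in ME was PGLR, the closest homolog of a secreted polygalacturonase that cuts pectin, with 110986 per kb in ME and 122909 per kb in EE. The mRNA highest per kb in EE was G3P3, the glycolytic glyceraldehyde-3-phosphate dehydrogenase, with 102891 per kb in ME and 164059 per kb in EE. Its level of 103920 in ME and 165700 in EE gave a change of −0.67 (SE 0.004). EF1A, the elongation factor that brings aminoacyl-tRNA to the ribosome, had a level of 74485 in ME and 69681 in EE. Of the 10 mRNAs with the highest mean level, which is not divided by length, 6 fell at least 2-fold and none rose. They include PGK and ENO, described below, and transfrag14162 on contig 106, with 100154 in ME and 247092 in EE, and transfrag26945 on contig 114, with 30929 in ME and 119908 in EE. These were not named, since the gene table was held in part. The others were transfrag21256 and transfrag16046, with 21793 and 17653 in ME and 61273 and 54538 in EE, which fell, and transfrag21818, with 25685 in ME and 42261 in EE. Per mapped read the change of transfrag14162 is not −1.30 but 0.0028, and that of ENO is not −1.18 but 0.12.

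Names come from the closest homolog of each gene, given by its protein database entry without the species suffix, and the roles stated are those known in *S. cerevisiae* or *K. lactis*. Of the 5785 mRNA transfrags, 2158 could be named this way. Among them, 748 (34.7%) rose and 652 (30.2%) fell, with a median change of −0.07, and this is the background for the gene lists. It includes low levels, where fewer mRNAs rose, and was not matched to the lists in level. All 20 transfrags of cytosolic ribosomal proteins and 18 of 19 of fatty acid and gluconeogenic carbon use reached a mean level of 10. Of all mRNAs at that level, 43.5% rose and 23.8% fell. Of those with a mean level over 100 and up to 1000, 56.2% rose, with a median change of 1.27. The deposited genes were checked against 7 database entries of *K. marxianus* itself. Of these, 6 had an mRNA transfrag, and for 5 of the 7 the identity was at least 99%.

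Among named mRNAs with a mean level of at least 10, the largest rises were of transfrags with almost no reads in EE. They were picked by change and passed the limit on mean level through ME alone, so their low EE levels follow from the choice. YP039, an uncharacterised protein, had 351.74 in ME and 1.33 in EE, the EE value being 1 read in 1 library and none in the other. That is 264-fold higher in ME, with a 95% counting interval from 68.2 to 15044. IRS4, a regulator of phosphoinositide levels, had 72.7 in ME and was listed at 0 in EE, at least 26.2-fold higher in ME against the level that 3 reads over both EE libraries would give. AMO1, a copper amine oxidase, had 58.9 in ME and was listed at 0 in EE, and HTL1, a subunit of the RSC chromatin remodelling complex, had 55.5 in ME and was listed at 0 in EE. SEC31, a coat protein of vesicles leaving the endoplasmic reticulum, had 72.8 in ME and 0.71 in EE. SIP3 had 70.5 in ME and 0.71 in EE. PES4, a poly(A) binding protein homolog, and NOP9, a ribosome assembly factor, had 38.6 and 36.7 in ME and were both listed at 0 in EE. RPC2, the second largest subunit of RNA polymerase III, had 114.5 in ME and 2.04 in EE, and FET3 is given with iron uptake. These 10 transfrags were between 104 and 536 nt long.

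The largest falls had many reads in EE. DBP2, an RNA helicase, had 19.3 in ME and 330.69 in EE, a change of −4.03 (SE 0.19) on 1 piece of its gene. RT107, a DNA repair scaffold, had 49.98 in ME and 772 in EE, and ACM1, an inhibitor of the anaphase-promoting complex, had 134.6 in ME and 1776 in EE. RSR1, the Ras-like GTPase that selects bud sites, had 193 in ME and 2420.5 in EE, 12.5-fold lower in ME. MDY2, which helps insert tail-anchored proteins, had 154 in ME and 1627 in EE. RLF2, the large subunit of chromatin assembly factor 1, had 5.16 in ME and 76.4 in EE. The endosomal sorting protein BRO1 had 2.35 in ME and 27.8 in EE. MRC1, a mediator of the replication checkpoint, had 1.81 in ME and 22.1 in EE. The homolog entry KAR had 39.1 in ME and 330 in EE, and ERG5 is given with sterol synthesis. All these falls exceed 1.31, the most that a rescaling raises a change, so no rescaling could turn their sign. Without a name, transfrag22375 on contig 112 had the largest fall of any mRNA with a mean level of at least 10, with 333 in ME and 6942 in EE, 20.9-fold lower in ME. The unnamed transfrag25238 had 597 in ME and 9291 in EE, and transfrag16618 had 93.9 in ME and 1282 in EE. The largest rises without a name were of transfrag16354 and transfrag15740, with 72.1 and 49.8 in ME and both listed at 0 in EE, and of transfrag21299, with 91.3 in ME and 0.71 in EE. These rises too passed the limit on mean level through ME alone.

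Gene lists were set against the named mRNA transfrags as a whole, and the lists were chosen with results of these data known. Of the 25 lists, 8 kept a median above 0 under the deposited and the 3 other scalings. These are the respiratory chain, cytosolic ribosomal proteins, sulfur assimilation, the ethanol and acetate branch, fatty acid and gluconeogenic carbon use, mitochondrial ribosomal proteins, chaperones, and amino acid permeases. Phosphate transport alone kept a median below 0, and the medians of the other 16 lists changed sign under at least 1 scaling. Whether a median kept its sign follows from its size, since the rescalings move changes down by up to 0.57 and up by up to 1.31.

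**Figure D3:**
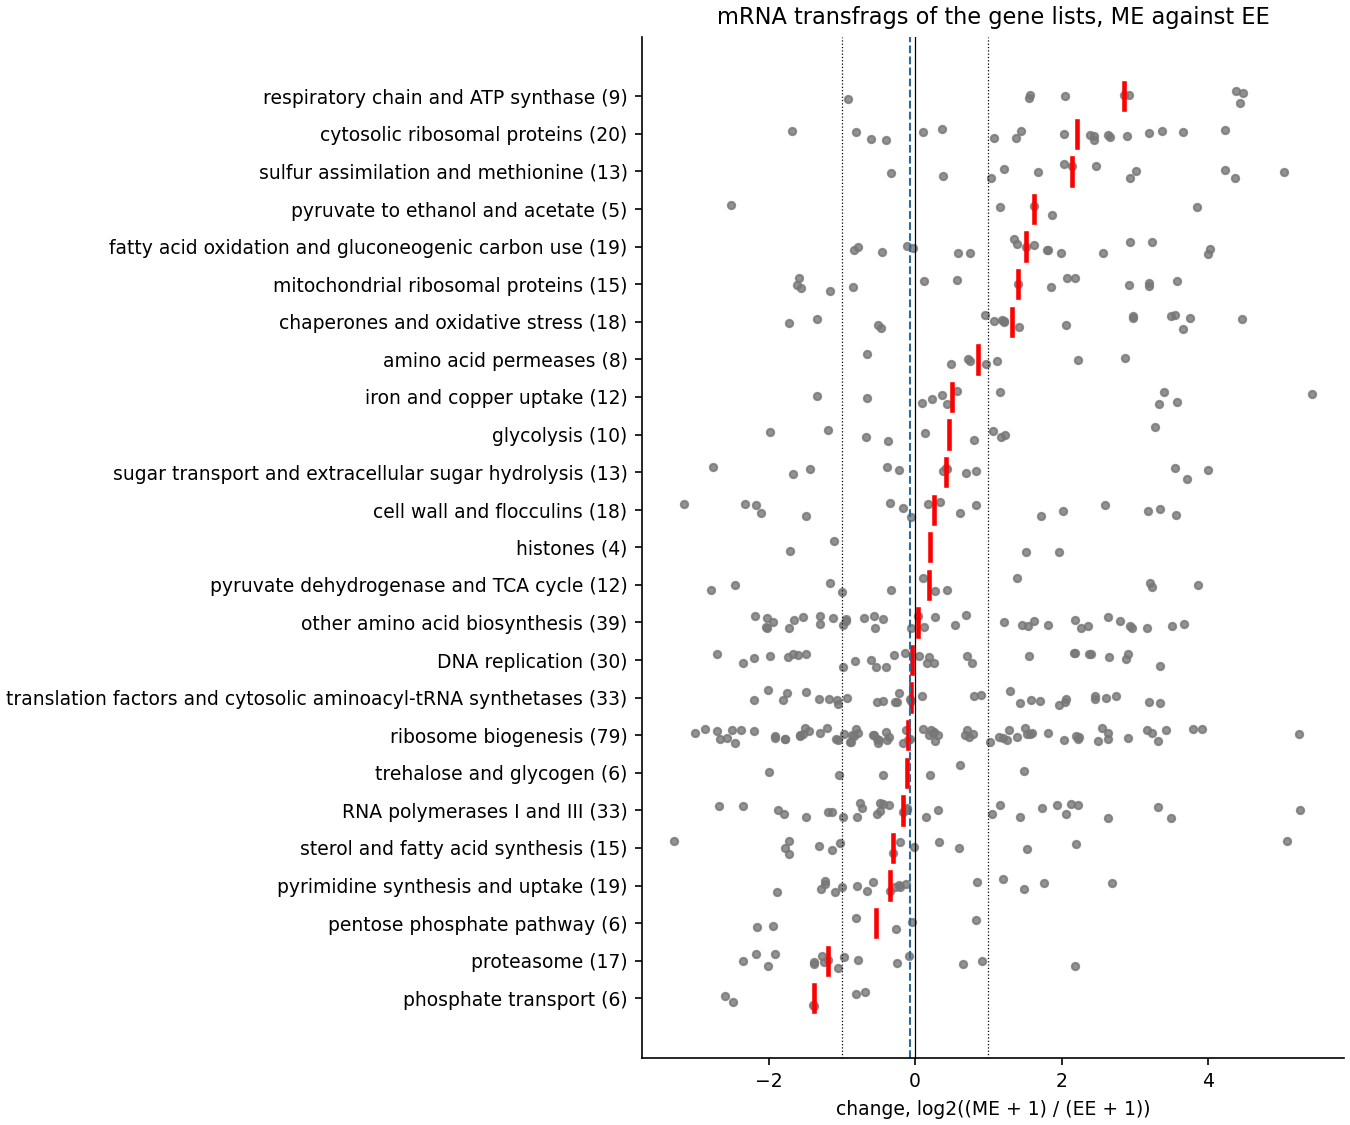
Change in ME against EE, on a log2 scale, of each mRNA transfrag (points) of 25 gene lists, with the number of transfrags in parentheses and the list median in red. Dotted lines mark 2-fold, and the dashed line is the median of all named mRNA transfrags, −0.07. The highest median is 2.85 for the respiratory chain and the lowest −1.38 for phosphate transport, and medians from −1.19 to 0.50 change sign under another scaling.

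Genes of glycolysis, which converts glucose to pyruvate, moved in both directions, with 4 of 10 transfrags risen and 2 fallen. These counts become 1 and 3 with the median mRNA set to no change, and 6 and 0 per mapped read. All 10 covered at least 80% of their gene. Those of the upper part rose or stayed within 2-fold. HXK, a hexokinase, had 3791 in ME and 1679.9 in EE (change 1.17, SE 0.04), and the glucokinase HXKG had 1187 in ME and 1532 in EE. G6PI, phosphoglucose isomerase, had 5902 in ME and 2519 in EE (1.23, SE 0.03). The phosphofructokinase subunit K6PF1 had 15554 in ME and 7442 in EE (1.06, SE 0.02), and the other subunit, K6PF2, had 11323 in ME and 6513 in EE, a change of 0.80. In the lower part, PGK, phosphoglycerate kinase, fell to 42094 in ME, against 165744 in EE (−1.98, SE 0.01). ENO, enolase, had 42981 in ME and 97608 in EE, a fall of 1.18 that turns to 0.12 per mapped read. KPYK, pyruvate kinase, which makes pyruvate in the last step, had the largest rise of the list, with 6240.5 in ME and 645.4 in EE (3.27, SE 0.06). The change of PMG3, a phosphoglycerate mutase homolog, was 0.13.

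From pyruvate to ethanol and acetate, 4 of 5 transfrags rose. PDC1, pyruvate decarboxylase, had 21289.9 in ME and 9537 in EE (1.16, SE 0.02). ADH3, an alcohol dehydrogenase of mitochondria, had 12788 in ME and 4146 in EE (1.62, SE 0.02), and ADH6, which uses NADPH, had 216 in ME and 58.4 in EE. ALDH6, the cytosolic acetaldehyde dehydrogenase that yields acetate, had 796 in ME and 54.5 in EE, 14.6-fold higher in ME. Only a short piece of ALDH4 fell, with 0.36 in ME and 6.75 in EE. No rescaling lowers a change by more than 0.57, so the rises of PDC1 and ADH3 could not turn in sign.

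**Figure D4:**
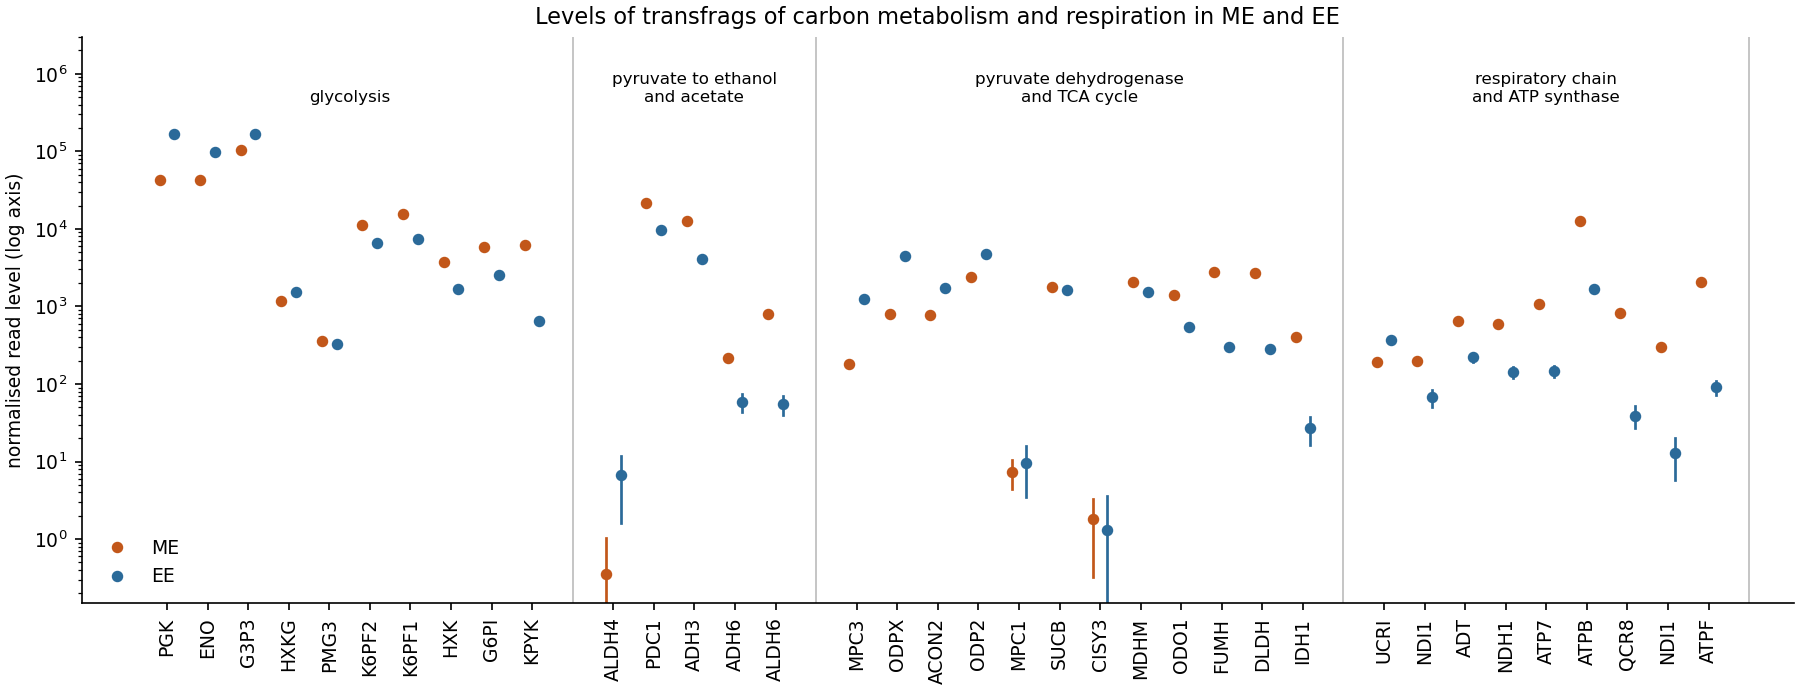
Level (log axis) of each mRNA transfrag of glycolysis, the ethanol and acetate branch, the pyruvate dehydrogenase and TCA cycle list and the respiratory chain list in ME (orange, left) and EE (blue, right), with 95% intervals for counting only, cut off at the axis where they reach 0. In the respiratory chain list every transfrag but UCRI is higher in ME. PGK and ENO are lower in ME as deposited, and ENO is higher in ME per mapped read.

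Entry into the TCA cycle and the cycle itself were split, with 4 of 12 transfrags risen and 4 fallen. Of the falls, 3 were of proteins that bring pyruvate into mitochondria or the cycle. MPC3, a subunit of the mitochondrial pyruvate carrier, had 182 in ME and 1256 in EE (−2.78, SE 0.07). ODPX, the component of pyruvate dehydrogenase that holds its E3 subunit, had 805 in ME and 4429 in EE (−2.46, SE 0.04). The E2 subunit ODP2 had 2374 in ME and 4750.0 in EE and fell by 1.00, which is 0.31 per mapped read, and ACON2, an aconitase homolog of the cycle itself, had 775 in ME and 1738 in EE and fell by 1.16, which is 0.14 per mapped read. Rises were seen for IDH1, DLDH, FUMH and ODO1. IDH1, a subunit of isocitrate dehydrogenase, had 402 in ME and 26.9 in EE (3.85, SE 0.27). DLDH, the E3 subunit shared by pyruvate and 2-oxoglutarate dehydrogenase, had 2694 in ME and 284 in EE (3.24, SE 0.09). FUMH, fumarase, had 2742 in ME and 297 in EE (3.20, SE 0.09), and ODO1, the E1 subunit of 2-oxoglutarate dehydrogenase, had 1412 in ME and 538 in EE. MDHM, malate dehydrogenase, and SUCB, a subunit of succinyl-CoA ligase, changed by 0.44 and 0.11. Subunits of 1 complex thus moved apart, with ODPX and DLDH of pyruvate dehydrogenase at −2.46 and 3.24.

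The respiratory chain and ATP synthase list had the highest median of all lists, 2.85, with 8 of 9 transfrags risen (88.9%) and none fallen. ATPF, subunit b of ATP synthase, had 2055 in ME and 91.3 in EE, 22.5-fold higher in ME. It lies on contig 103, bases 122299 to 122960 of the minus strand. ATPB, the catalytic beta subunit, had 12476 in ME and 1655 in EE (2.91, SE 0.04), and the stalk subunit ATP7 had 1063 in ME and 146 in EE. QCR8, a subunit of complex III, had 834 in ME and 39.1 in EE (4.38, SE 0.23). The internal NADH dehydrogenase NDI1 was seen in 2 pieces, of 302 in ME and 12.95 in EE and of 199 in ME and 67.1 in EE. The external NADH dehydrogenase NDH1 had 594 in ME and 143 in EE, and the ADP/ATP carrier ADT had 658 in ME and 222 in EE. UCRI, the Rieske iron-sulfur protein of complex III, was the exception, with 192 in ME and 365 in EE, a change of −0.92 that is above 0 per mapped read.

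Of the pentose phosphate pathway, which makes NADPH and ribose, 2 of 6 transfrags fell and none rose. RPE, ribulose-phosphate 3-epimerase, had 1599 in ME and 6137 in EE (−1.94, SE 0.03), and GNTK, gluconokinase, had 10.3 in ME and 49.2 in EE. 6PGD1, 6-phosphogluconate dehydrogenase, had 5277 in ME and 9214 in EE, and the transketolase TKT1 had 8795 in ME and 4937 in EE. The list median of −0.53 is 0.77 per mapped read.

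Genes for the use of fatty acids, lactate, glycerol and acetate had a median of 1.51, with 12 of 19 transfrags risen (63.2%) and none fallen. GLPK, glycerol kinase, had 5218 in ME and 1482 in EE (1.82, SE 0.04). SFC1, the mitochondrial succinate and fumarate carrier, had 468 in ME and 60.3 in EE, and CYB2, the lactate dehydrogenase that feeds cytochrome c, had 564 in ME and 182 in EE. JEN1, the lactate permease, had 97.0 in ME and 33.4 in EE on its longer piece. F16P, fructose-1,6-bisphosphatase of gluconeogenesis, had 38.3 in ME and 1.41 in EE, the EE value being 2 reads. CACM, the mitochondrial carnitine acetyltransferase, had 91.0 in ME and 4.79 in EE on 1 piece. A piece of the carnitine acetyltransferase YAT2 had 8.44 in ME and was listed at 0 in EE. MASY, malate synthase, and DLD1, a D-lactate dehydrogenase, had changes of −0.84 and, on its longer piece, −0.78. The longest piece of CAT8, the activator of gluconeogenic genes, had 2853 in ME and 1692 in EE, a change of 0.75. Members that rose could not turn in sign, since no rescaling lowers a change by more than 0.57.

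Sugar transport showed no common direction, with 3 of 13 transfrags risen and 3 fallen. KHT2, a hexose transporter of *K. lactis*, fell to 203 in ME, against 1384 in EE (−2.76, SE 0.07). The other falls were of short pieces, HXT14 with 2.53 in ME and 10.2 in EE and HGT1 with 3.17 in ME and 10.3 in EE. STL1, the glycerol and proton symporter, had 3302 in ME and 251 in EE (3.71, SE 0.09). INU1, the secreted inulinase that releases fructose and also cuts sucrose, had 150.5 in ME and 11.9 in EE (3.55, SE 0.39). Of the glucose sensor SNF3, 1 piece rose, with 48.9 in ME and 2.12 in EE, and the longest had 193 in ME and 143 in EE. The 6 transfrags with the hexose transporter HGT1 of *K. lactis* as closest homolog had between 3.17 and 11.0 in ME and between 4.00 and 10.9 in EE. Reads without a unique place were set at random by the study, so the division of reads among such genes is uncertain.

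Cytosolic ribosomal proteins had a median of 2.21, with 14 of 20 transfrags risen (70.0%) and 1 fallen. RL18B had 638 in ME and 32.9 in EE (4.23, SE 0.25), RL37A had 468 in ME and 36.2 in EE (3.66, SE 0.24), and RSSA, a protein of the small subunit, had 1019 in ME and 97.6 in EE (3.37, SE 0.15). RS5 had 2364 in ME and 1121 in EE, and RL13B had 2098 in ME and 229 in EE. The 1 fall was of a transfrag with RL9B as closest homolog, with 11.2 in ME and 38.2 in EE, and the 2 others with this homolog changed by −0.81 and 0.37. Ribosomal proteins can have near-identical copies, among which the division of reads is uncertain. For RL19B, 1 piece had 1953 in ME and 315 in EE and another 40.2 in ME and 53.4 in EE. Of the 8 transfrags that covered at least 80% of their gene, 6 rose and 1 fell.

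Mitochondrial ribosomal proteins had 8 of 15 transfrags risen and 4 fallen. RT25 had 76.1 in ME and 5.50 in EE, RM08 had 75.8 in ME and 7.38 in EE, and RT02 had 96.6 in ME and 9.74 in EE. RM17, RM25 and IMG1 had 3.53, 3.35 and 9.98 in ME and 12.8, 12.1 and 31.5 in EE. RT05, the highest of the list, had 412 in ME and 155 in EE. The 4 falls were all of transfrags with levels under 32 in both phases.

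Factors that build ribosomes had a lower share of rises than the ribosomal proteins. Of 79 transfrags, 27 rose (34.2%) and 22 fell (27.8%), close to the 34.7% and 30.2% of all named mRNA transfrags. Only 50 of the 79 reached a mean level of 10, against all 20 of the ribosomal proteins. When the pieces of a gene were summed, 20 of 55 genes rose and 12 fell, against 14 and 1 of 18 ribosomal protein genes. Whether the difference holds between transfrags of matched level was not tested. FBRL, fibrillarin, the methyltransferase of box C/D particles, fell to 398 in ME, against 2371 in EE (−2.57, SE 0.05). IF6, which keeps free 60S subunits apart from 40S, had 136 in ME and 8.87 in EE, and ALB1, a 60S export factor, had 75.4 in ME and 4.08 in EE. FAL1 and NOP4 pieces fell to 0.73 and 1.54 in ME, against 12.9 and 17.6 in EE. A NOC4 piece was listed at 0 in ME and had 5.50 in EE. RNA polymerases I and III had 12 of 33 transfrags risen and 7 fallen. RPC8, a polymerase III subunit, had 82.9 in ME and 537 in EE (−2.68, SE 0.11), whereas the largest rises, after RPC2, were of pieces of RPC1 and RPA1, the largest subunits of polymerases III and I, with 34.2 and 44.1 in ME and 2.12 and 3.54 in EE. A TFC4 piece fell to 0.27 in ME, against 5.50 in EE, and a piece of RPC1 to 6.16 in ME, against 25.1 in EE. TFC7, a subunit of the polymerase III factor TFIIIC, had 1279.8 in ME and 1632 in EE, a change of −0.35.

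Translation factors and aminoacyl-tRNA synthetases had 13 of 33 transfrags risen and 9 fallen. Factors that recruit ribosomes to mRNA were among both. DED1, a helicase needed for scanning, fell to 3135 in ME, against 8807 in EE (−1.49, SE 0.02), and IF2G, the gamma subunit of the factor that carries initiator tRNA, had 38.2 in ME and 157 in EE (−2.01, SE 0.17). IF4E, the cap-binding protein, rose to 352 in ME, against 63.5 in EE (2.45, SE 0.19). Pieces of the synthetases SYMC and SYTC rose, with 387 and 600.3 in ME and 37.4 and 64.5 in EE, while other pieces of both genes fell, with 14.0 and 1.81 in ME and 36.4 and 8.79 in EE. SYRC, which charges arginine tRNA, rose over its whole gene, with 1435 in ME and 215 in EE. A piece of SYDC, for aspartate, had 11.4 in ME and 55.7 in EE.

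Sulfur assimilation and methionine synthesis held the largest rise among listed transfrags that cover at least 80% of their gene. The list median was 2.13, with 11 of 13 transfrags risen (84.6%) and none fallen. METE, the methionine synthase that works without cobalamin, had 7409.9 in ME and 225 in EE (5.03, SE 0.10), 32.9-fold higher in ME, on contig 91, bases 108522 to 111934 of the minus strand. METK2, which makes S-adenosylmethionine, had 8102 in ME and 392 in EE (4.36, SE 0.07). MET17, which binds sulfide into homocysteine, had 2667 in ME and 331 in EE (3.01, SE 0.08). MET32, a zinc finger activator of the pathway, had 30.95 in ME and 0.71 in EE, the EE value being 1 read. MET16 and MET3, which reduce and activate sulfate, had 163 and 227 in ME and 39.3 and 97.6 in EE. The methylenetetrahydrofolate reductase homolog MTHR1, which supplies the methyl group, changed by −0.32 and 0.38 on its 2 pieces.

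Other amino acid pathways were mixed, with 15 of 39 transfrags risen and 11 fallen. ASSY, argininosuccinate synthase, had 6569 in ME and 516 in EE (3.67, SE 0.06), TRPE, the first enzyme of tryptophan synthesis, had 809 in ME and 70.3 in EE (3.51, SE 0.17), and CARB, the large subunit of carbamoyl phosphate synthetase for arginine, had 1211 in ME and 134 in EE on 1 piece. Both pieces of its small subunit CARA fell, with 63.1 and 11.5 in ME and 157 and 40.4 in EE. Falls were seen for P5CR, the last enzyme of proline synthesis, with 963 in ME and 3967 in EE (−2.04, SE 0.03), and for a piece of GLYM, with 2.00 in ME and 12.7 in EE. Of 2 genes with homocitrate synthase HOSM as closest homolog, 1 rose, with 6743 in ME and 973 in EE, and 1 fell, with 23.6 in ME and 99.2 in EE. BCA1, the mitochondrial branched-chain aminotransferase, had 7968 in ME and 17280.2 in EE, a fall of 1.12 that is 0.19 per mapped read. When the pieces of a gene were summed, 15 of 28 genes rose and 8 fell. Of the amino acid permeases, 3 of 8 rose and none fell. HIP1, for histidine, had 1391 in ME and 189.6 in EE (2.87, SE 0.11), the general permease GAP1 had 494 in ME and 105 in EE (2.23, SE 0.15), and LYP1, for lysine, had 1092 in ME and 501 in EE. TAT2, for aromatic amino acids, had 1244 in ME and 753 in EE, and GNP1, for glutamine, changed by −0.66.

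In iron and copper uptake, 5 of 12 transfrags rose and 1 fell. Both pieces of FET3, the multicopper oxidase of high-affinity iron uptake, rose, with 309.7 and 98.3 in ME and 25.1 and 1.33 in EE. ARN1, a transporter of iron bound to siderophores, had 4966 in ME and 496 in EE (3.32, SE 0.07), and a piece of the reductase FRE3 had 73.8 in ME and 6.12 in EE. AFT1, the activator of iron uptake genes, fell to 810 in ME, against 2050.0 in EE (−1.34, SE 0.04). CTR1, a copper transporter, had 14404 in ME and 9730 in EE, a change of 0.57. Phosphate transport had 4 of 6 transfrags fallen and none risen. PHO91, the vacuolar phosphate transporter, had 503 in ME and 2828 in EE on its longest piece (−2.49, SE 0.05), and its 2 other pieces fell too. PHO87, the low-affinity transporter, had 1392 in ME and 3610.1 in EE (−1.37, SE 0.03). The high-affinity transporter PHO84 had 36.96 in ME and 65.6 in EE.

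Pyrimidine synthesis and uptake, in cells grown without uracil, had 4 of 19 transfrags risen and 6 fallen, against 34.7% and 30.2% of all named ones. PYRF, orotidine phosphate decarboxylase, had 310 in ME and 47.2 in EE (2.69, SE 0.21), and PYRE, the step before it, had 576 in ME and 249.8 in EE (1.20, SE 0.10). PYRD, dihydroorotate dehydrogenase, fell to 27.0 in ME, against 103 in EE (−1.89, SE 0.21). Short pieces of URC2, UPP, URK1 and URC4, of uracil breakdown and salvage, fell as well, with at most 9.60 in ME and 20.3 in EE, and that of URC4 is above 0 per mapped read. PYR1, the large protein that starts the pathway, was seen in 6 pieces whose changes ran from −1.09 to 1.75. A piece of the uracil permease FUR4 had 292 in ME and 104 in EE, and another changed by −0.27.

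Chaperones and proteins of oxidative stress had 13 of 18 transfrags risen (72.2%) and 2 fallen. HSP31, a stress-induced glyoxalase, had 170 in ME and 6.75 in EE (4.46, SE 0.49). HCH1 and STI1, partners of Hsp90, had 67.3 and 1330 in ME and 4.08 and 113 in EE. TRXB, thioredoxin reductase, had 971 in ME and 76.1 in EE (3.66, SE 0.17), and HSP77, a mitochondrial Hsp70 that pulls proteins into the matrix, had 3460.4 in ME and 439.6 in EE. HSF, the heat shock factor that drives many of these genes, had 2543 in ME and 1101 in EE (1.21, SE 0.05). HSP73, a cytosolic Hsp70, fell, with 6099 in ME and 20062 in EE (−1.72, SE 0.01). The other fall was a piece of MAS5, an Hsp40, with 3.26 in ME and 9.74 in EE, while a larger piece of it rose. Catalase A, CATA, had 380 in ME and 526 in EE.

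The proteasome, which degrades ubiquitinated proteins, had 10 of 17 transfrags fallen (58.8%) and 1 risen, with a median of −1.19 that turns to 0.065 per mapped read. PRS7, an ATPase of its base, had 4874 in ME and 22011 in EE (−2.17, SE 0.02). RPN11, the deubiquitinase of the lid, had 146 in ME and 551 in EE (−1.91, SE 0.09), and the pieces of RPN3 and PRS6A with the largest falls had 4.71 and 4.35 in ME and 21.9 and 26.2 in EE. PSA6 of the core particle had 522 in ME and 1081 in EE, a fall of 1.05 that is 0.25 per mapped read. RPN4, the activator of proteasome genes, had 3010.3 in ME and 5166 in EE, a change of −0.78. UMP1, the assembly factor of the core, was the only rise, with 134 in ME and 28.7 in EE (2.18, SE 0.27).

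In the cell wall list 6 of 18 transfrags rose and 5 fell. Of the rises, 5 were of transfrags that cover at least 80% of their gene, most of them coding for proteins that act on wall glucan. SCW4 had 4443 in ME and 375 in EE (3.56, SE 0.08), GAS1 had 4912 in ME and 485 in EE (3.34, SE 0.07), BGL2 had 10193 in ME and 3109 in EE (1.71, SE 0.03), and a homolog of FLO5, a flocculin that joins cells, had 564 in ME and 61.2 in EE. Other FLO5 homologs fell on short pieces, with 0.36, 0.27 and 2.44 in ME and 11.2, 5.33 and 14.5 in EE. Reads shared by such genes would be divided at random.

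Sterol and fatty acid synthesis had 7 of 15 transfrags fallen and 3 risen. All 3 pieces of ERG5, a desaturase of ergosterol synthesis, fell, with 8.82, 70.1 and 2.81 in ME and 95.1, 242 and 11.5 in EE. FPPS, farnesyl pyrophosphate synthase, had 1339.9 in ME and 4401 in EE (−1.71, SE 0.03). ACO1, the fatty acid desaturase, had 14680.3 in ME and 11701 in EE, a change of 0.33. A piece of ERG8, phosphomevalonate kinase, rose, with 56.6 in ME and 0.71 in EE, the EE value being 1 read, and a piece of IDI1, isopentenyl diphosphate isomerase, with 61.0 in ME and 20.6 in EE. HMCS, HMG-CoA synthase, had 386 in ME and 83.5 in EE on 1 piece and 12.1 in ME and 12.2 in EE on another.

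Histones moved apart, with H4 and H2AZ risen (1674 and 215 in ME, 584 and 54.1 in EE) and H2B2 and H2A fallen (84.4 and 217 in ME, 278 and 467 in EE), of which the fall of H2A by 1.10 is 0.20 per mapped read. DNA replication had 9 of 30 transfrags risen and 8 fallen. PCNA, the sliding clamp, had 149.6 in ME and 13.8 in EE (3.35, SE 0.37), and CDC6, which loads the helicase, had 207 in ME and 26.9 in EE (2.90, SE 0.28). RFC3, a subunit of the clamp loader, fell to 94.3 in ME, against 622 in EE (−2.71, SE 0.10). DPOA, the polymerase that starts strands, had a piece at 305 in ME and 40.6 in EE and another at 1.46 in ME and 8.71 in EE. Pieces of PRI1 and DPOE fell to 1.90 and 1.73 in ME, against 13.7 and 11.5 in EE, and DPB3, a subunit of polymerase epsilon, had 233 in ME and 658 in EE (−1.49, SE 0.08). Of the trehalose and glycogen list, GLGB, the glycogen branching enzyme, rose to 2919 in ME, against 1043 in EE (1.48, SE 0.05), TREA, trehalase, had 225 in ME and 462 in EE, a fall of 1.04 that is 0.26 per mapped read, and a piece of PHS, glycogen phosphorylase, had 0.81 in ME and 6.20 in EE. TPS1 and UGPA1, which make trehalose phosphate and UDP-glucose, changed by 0.21 and 0.61.

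Pieces of 1 gene often moved apart. At a mean level of at least 10, 268 genes had 2 or more mRNA transfrags, and in 74 of them (27.6%) 1 transfrag rose while another fell. For the 203 genes with exactly 2 such transfrags, the median difference between both changes was 2.00 on the log2 scale, and across genes the changes showed almost no correlation (Pearson's r = 0.05, Spearman's rho = 0.03). The SD within genes was 1.82, close to the SD of 1.94 over all these pieces. For the same genes LE against ME, which shares the ME libraries, gave a median difference of 0.74 with r = −0.0020 and rho = 0.086, within a smaller SD over all pieces of 0.88. At higher levels the correlations were larger. For ME against EE, r was 0.24 and rho 0.22 in 83 genes at a mean level of at least 50, and r was 0.16 and rho 0.14 in 44 genes at 100. For LE against ME, r was 0.26 and rho 0.36 at 50, and r was 0.28 and rho 0.34 at 100. At 300, where 15 genes were left, rho was 0.40 for ME against EE and 0.64 for LE against ME, whereas r was 0.36 and 0.22, in the reverse order. Genes share their libraries and are not independent replicates. At a mean level of at least 100 the difference was 1.76 in 44 genes for ME against EE and 0.37 for LE against ME. The change, with its sign, was lower in the piece nearest the 3′ end than in that nearest the 5′ end in 139 of 268 genes. Rescaling shifts both pieces alike. The values of a single piece are therefore not those of its gene.

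**Figure D5:**
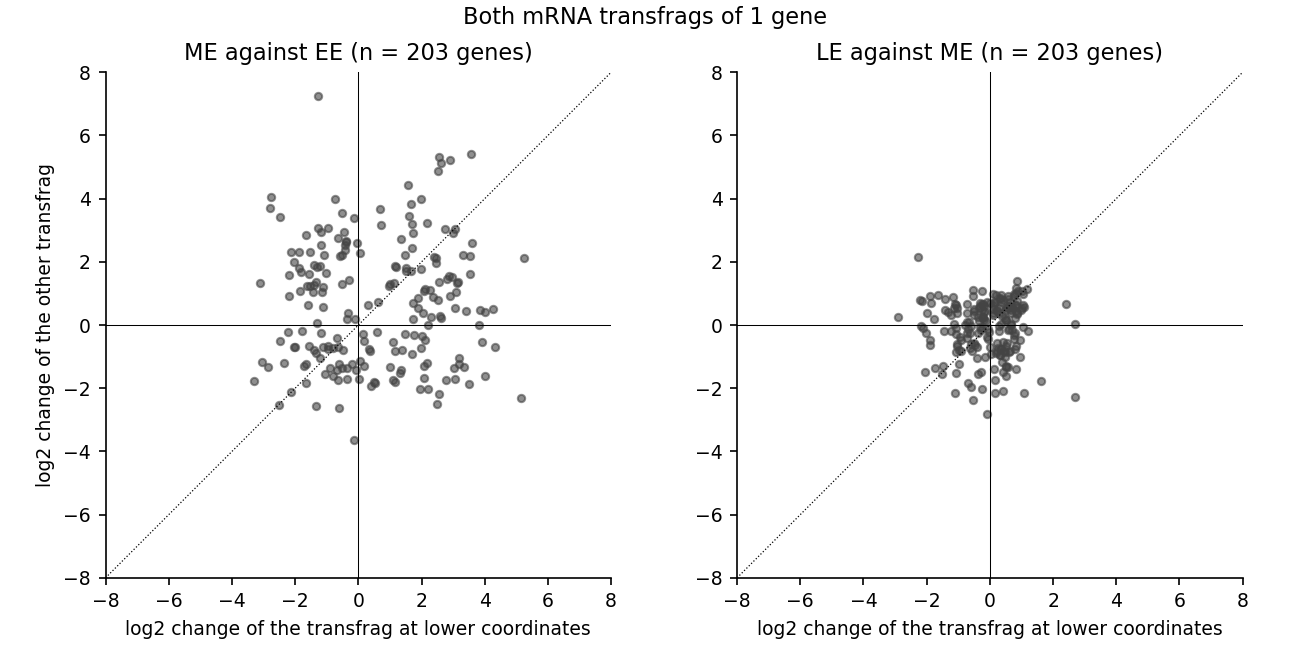
Log2 change of both mRNA transfrags of 203 genes that had exactly 2 with a mean level of at least 10, for ME against EE (left) and LE against ME (right). Points on the dotted line would be pieces that change alike. The points scatter around no line in either panel, with a median difference of 2.00 on the left and 0.74 on the right.

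The helicase gene DBP2 shows this along 1 strand of contig 105. Its piece at bases 700244 to 700779 had 200.0 in ME and 229 in EE. The next, at 701094 to 701900, had 140.9 in ME and 5.58 in EE, the EE value being 7 reads over both libraries, a change of 4.43 (SE 0.53). The last, at 702755 to 703294, had 19.3 in ME and 331 in EE, a change of −4.03. In SKT5, a regulator of chitin synthesis, the long 5′ piece of 2365 nt fell to 712 in ME, against 4879 in EE, and the 3′ piece of 690 nt rose to 260.0 in ME, against 14.8 in EE. In YP039, the piece next to the one with the largest rise had 16.8 in ME and 42.3 in EE. TAP42, MET22 and RRP36 were split in the same manner, with falls of 2.81, 2.32 and 2.49 on 1 piece and rises of 3.72, 5.14 and 3.42 on another.

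Among lancRNAs with a mean level of at least 10, the largest rise was of transfrag21239 on contig 112, bases 128146 to 129061 of the plus strand, with 411 in ME and 2.67 in EE, the EE value being 2 reads in 1 library. Next were transfrag20799, opposite the snoRNA gene snR80, with 213 in ME and 1.33 in EE, transfrag14414, with 173 in ME and 1.41 in EE, and transfrag14121, with 66.1 in ME and listed at 0 in EE. Transfrag26521 had 341 in ME and 5.58 in EE, 61.1-fold higher in ME. The largest fall was opposite LTV1, a 40S assembly factor, where transfrag02520 had 1.54 in ME and 50.8 in EE, 33.0-fold lower in ME. Opposite MGA1, transfrag06967 had 0.54 in ME and 24.4 in EE. Transfrag25888, transfrag01416 and transfrag16723 had 0.36, 1.00 and 1.72 in ME and 21.2, 30.2 and 32.0 in EE. These 5 were picked as the largest falls and passed the limit on mean level through EE alone, so their low ME levels follow from the choice. None of these 5 had been above 51 in EE. The largest rises likewise passed the limit through ME alone, so their low EE levels follow from the choice.

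Among lincRNAs, the largest rise was of transfrag00131 on the small contig 71, bases 600 to 900, with 3850 in ME and 23.7 in EE (7.28, SE 0.29), 162-fold higher in ME. LincRNAs transfrag31335 and transfrag00135 had 146 and 270.0 in ME and 2.04 and 9.66 in EE. At the other end, transfrag14888 and transfrag00103 were listed at 0 in ME and had 24.4 and 24.3 in EE, at least 26.2-fold and 26.1-fold lower in ME, and transfrag31041 had 0.36 in ME and 19.6 in EE. These lincRNA falls passed the limit on mean level through EE alone, so their low ME levels follow from the choice. The short RNAs named next likewise passed it only through the phase in which they were higher. Of the short RNAs, the sancRNA transfrag03070, opposite the ubiquitin ligase RSP5, had 31.6 in ME and was listed at 0 in EE, as was transfrag16684 with 24.0 in ME. SancRNAs transfrag16227, opposite the large rRNA, and transfrag26089 fell to 3.78 and 1.00 in ME, against 114.4 and 21.2 in EE. The ME value of transfrag16227 was 14 reads in 1 library and none in the other. Its bases lie inside the lancRNA transfrag16228 on the same strand, which had 8391 in ME and 3461 in EE. SincRNAs transfrag04250 and transfrag24199 rose, with 37.1 and 36.0 in ME and 2.12 and 2.67 in EE, and transfrag00047 and transfrag14341 fell, with 2.17 and 0.27 in ME and 67.4 and 22.9 in EE.

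Changes of lancRNAs and of the mRNAs they overlap on the opposite strand showed almost no correlation. There were 2374 such pairs, of 2272 lancRNAs and 1888 mRNAs, and across them Pearson's r of the changes was −0.04 and Spearman's rho −0.05. In 901 pairs both changed at least 2-fold, and in 453 of these (50.3%) they moved the same way. Both rose in 340 pairs and both fell in 113, the lancRNA rose and the mRNA fell in 204, and the reverse was seen in 244. With a mean level of both of at least 10, 441 of 1086 pairs changed at least 2-fold in both members. Both rose in 174 and both fell in 34 (47.2% the same way), the lancRNA rose over a fallen mRNA in 166, and the reverse was seen in 67, with r = −0.06 and rho = −0.08 across the 1086 pairs. The share that moved the same way follows the scaling, from 46.1% with the median mRNA set to no change to 82.3% per mapped read. Pairs share transfrags, and the 2 members of a pair share their libraries.

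Of all transfrags, 113 overlapped an RNA gene on either strand, although the study describes removing such transfrags. The lancRNA opposite the RNA of the signal recognition particle, which guides proteins to the endoplasmic reticulum, had 36636 in ME and 1080.3 in EE, 33.9-fold higher in ME. LancRNAs opposite the spliceosomal RNAs U2, U1 and U5 had 135, 571 and 142 in ME and 3.54, 84.0 and 19.2 in EE, and that opposite U4 had 12.9 in ME and 10.3 in EE. Of the transfrags at snoRNA genes, 25 of them on the opposite strand, 16 of 31 rose and 5 fell. The 2 largest rises at the same strand were of overlapping mRNA transfrags that hold a SNORD24 gene, with 1512 and 1249.6 in ME and 36.8 and 41.4 in EE. At tRNA genes, 64 of 67 transfrags lay on the opposite strand, and 12 of the 67 rose and 24 fell, against 26.7% risen and 36.9% fallen among all transfrags. Opposite the nuclear rRNA genes on contig 107, a lancRNA at the small rRNA had 8410.3 in ME and 6914 in EE, and 2 at the large rRNA had 8391 and 4327 in ME and 3461 and 2579 in EE. Opposite rRNA genes found with the bacterial models, the type that mitochondria carry, the levels were 56956 in ME and 1527 in EE for the small and 2475 in ME and 305 in EE for the large subunit, 37.3-fold and 8.12-fold higher in ME. The lancRNA opposite the mitochondrial gene COX2, for a subunit of cytochrome c oxidase, had 348 in ME and 39.4 in EE, and one opposite a group II intron, chosen after its values were seen, had 2198 in ME and 64.1 in EE. The 3 other transfrags on these contigs were listed at 0 in ME and had 5.33, 11.5 and 13.4 in EE. Levels of the RNA genes themselves were not analysed here.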

How the data were processed

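RNA of 6 cultures, 2 for each of 3 growth phases, was depleted of rRNA and sequenced with strand information on an Illumina MiSeq. Per the study's methods, the authors mapped reads to a draft assembly with CLC, placing reads with several matches at random, joined covered stretches over all phases into transfrags and dropped low ones. CASAVA 1.4 and DESeq are named in the submitters' processing notes. The deposited values are normalized read signal per transfrag, scaled by the authors with DESeq size factors and given as 1 authors' mean of 2 libraries per growth phase. No column of a single library was used here, and the authors' own comparisons were not used. The 2 samples of a group are called biological replicates by the study, and their spread enters neither the changes nor their errors. It is given only as the difference between libraries in low levels.

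The change is log2((ME + 1)/(EE + 1)). Calls are changes of at least 2-fold, and ranking used a mean level of at least 10. In low levels, ME values were whole multiples of 0.27 and 0.365 (100% of 5675 levels up to 5) and EE values of 0.707 and 1.3338 (99.77% of 8160 levels up to 12), within a tolerance of 0.0055. These steps gave the reads behind each level, its counting error (95% intervals are exact where 1 to 3 reads were seen) and a floor of 3 reads over both libraries, divided by the sum of both size factors, a level of 0.93 in ME and 2.77 in EE. All intervals cover counting error only. The step method was tested on simulated data.

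mRNA transfrags were placed on genes by an overlap of at least 50% of the transfrag on the same strand. The table of genes and homologs was held in part, with 1998 genes, so 2208 of 5785 mRNA transfrags were placed and 2158 had a homolog. For 96.0% of the 1998 transfrags with a gene in the held table, the overlap gave the same gene. Transfrags were named by a rule. These are the 10 mRNAs with the highest mean level, and by change the 10 largest rises and falls of mRNAs with a homolog, 3 of mRNAs without, 5 of lancRNAs, 3 of lincRNAs, and 2 each of sancRNAs and sincRNAs. In each gene list up to 3 rises, up to 3 falls and the member with the highest level were named, and other members were named after their values were seen. The comparison, the gene lists and the members were chosen with earlier results of these data known. Pairs overlap by at least 1 bp on opposite strands.

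Alternatives were other pseudocounts, limits on level and fold, 3 rescalings of ME against EE, and 1 value per gene. Python 3.11.15, NumPy 2.4.6, pandas 2.3.3, SciPy 1.17.1 and Matplotlib 3.10.9 were used.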

Additional observations from a re-analysis of the deposited data

How the results depend on the processing

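With 1 mean level per growth phase there is no replicate error, depth is lower in EE, and levels of a few reads carry wide counting intervals. No paired analysis was possible because the columns hold means over both libraries, and leaving out a replicate was not run for the same reason. The 3822 higher and 5281 lower transfrags became 2713 lower with a pseudocount of 5, 2524 higher and 1237 lower with 10, and 6489 higher and 2539 lower per mapped read. There were 1485 lower at a mean level of at least 10, 1608 higher and 615 lower at 50, and 2053 higher and 2242 lower at 4-fold. Among mRNAs covering at least 80% of a gene, an alternative chosen after seeing the data, there were 246 higher and 138 lower. At other scalings (same sum, median mRNA ratio, mapped reads) and at a mean level of at least 10, class medians were 0.11, −0.64, 1.11 and 0.57 for mRNAs, 0.47, −0.24, 1.45 and 0.94 for lancRNAs, −1.27, −1.67, −0.61 and −0.37 for sancRNAs, and −0.88, −1.38, −0.13 and −0.38 for sincRNAs. LincRNAs had −0.030, −0.73 and 0.94 under the 3 scalings. Pseudocounts of 5 and 10 gave 0.16 and 0.12 for lancRNAs, −0.63 and −0.38 for sancRNAs and −0.51 and −0.31 for sincRNAs, 10 gave −0.12 for lincRNAs, and 0.5 gave −1.68 for sancRNAs and −1.22 for sincRNAs. Lists with a median above 0 numbered 15, and 8 with the median mRNA ratio and 24 per mapped read. Pairs moved the same way in 55.2%, 46.1% and 82.3% under the 3 scalings. Per mapped read the proteasome median turned to 0.065, transfrag14162 to 0.0028 and ENO (transfrag06512) to 0.12, and 19 list members that had fallen turned positive, whereas no list member past 2-fold changed sign under the other scalings and pseudocounts. A rescaling moves all changes one way by construction. The other scalings move them by at most 0.57 and a pseudocount cannot turn a sign, so no change past 2-fold could turn there. Why the balance turned with the limit on level or on covered genes was not tested. The lincRNA transfrag00131 and the YP039 mRNA transfrag09872 changed by 7.31 and 7.59 with a pseudocount of 0.5, against 7.28 and 7.24 with 1, so their order depends on it. Pieces of genes at mean levels of at least 50 and 100, lists on covered genes and contigs under the scalings were also chosen after seeing the data.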

Other observations

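The balance of changes differed along the assembly. Among the 13 contigs with at least 200 transfrags, the median change ran from −0.93 on contig 115, where 12.4% of 209 transfrags rose and 48.8% fell in ME, to −0.09 on contig 104. The range of the medians was 0.84 as deposited and between 0.77 and 0.85 under the 3 rescalings, and the cause was not tested.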
